A study of Mus musculus with 112 samples.

Results

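Transcriptional profiling of the epididymal white adipose tissue (WAT) of DBA/2J mice was used to ask which genes change with caloric restriction (CR) in this strain. DBA/2J is a common inbred mouse strain, and 16 of the 112 Affymetrix Mouse Gene 1.0 ST arrays of the series come from it, 8 from CR mice and 8 from control mice, with 1 male mouse per array. Members were taken by the strain label DBA/2J and by the diet in the sample title. All 16 mice were housed singly and fed the same AIN93M-based food at 84 kcal per week before 8 weeks of age. From then on the CR mice received smaller fixed portions of a restricted diet, the control mice stayed on the original portions, and fat was taken at 22 weeks after an overnight fast. No genotype or drug distinguishes the groups, and the control mice also ate measured portions, so the contrast is between a smaller and a larger ration. The 3 strains C3H/HeJ, CBA/J and B6C3F1/J (48 arrays) were given the same portions and serve below as the closest comparison. Values are log2 signals, on which a difference of 1 is a 2-fold difference, and differences are CR minus control throughout.

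White adipocytes store energy as triacylglycerol, which they assemble from fatty acids taken from blood and from fatty acids built from glucose by way of citrate, acetyl-CoA and malonyl-CoA. Insulin and glucose drive that synthesis, through the transcription factors SREBP-1c and ChREBP (gene Mlxipl), and fasting switches it off while lipolysis releases the stored fat. Fat that is expanding also takes up macrophages, lays down matrix and expresses a set of imprinted genes, of which Mest and Peg3 are the best known.

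The arrays carried adipocyte RNA, but several also carried transcripts of neighbouring organs. The mean level of 12 adipocyte markers, among them adiponectin, lay between 12.44 and 12.71 in CR mice and between 12.56 and 12.84 in control mice. Of 50 epididymis genes, such as Gpx5, Lcn8 and Spint4, the mean was 6.89 in CR mouse 1 and 7.64 in CR mouse 6, and 7.64 in control mouse 3 and 8.36 in control mouse 4, against 5.2 to 5.97 in the other 12 mice. All tests were therefore repeated without these 4 arrays. Other tissues appeared in other mice, and the 3 lists of ciliated duct epithelium, liver and kidney genes were drawn up after the values were seen. B cell markers averaged 9.25 in CR mouse 3, against at most 6.72 elsewhere. Testis germ cell genes averaged 7.21 in CR mouse 2, 7.55 in CR mouse 4 and 6.55 in CR mouse 8, against 5.5 to 6.14 in the controls. They also exceeded the controls in CR mouse 5 (6.39) and CR mouse 6 (6.17). Kidney genes averaged 8.51 in control mouse 1, 8.4 in control mouse 2 and 6.54 in control mouse 8, against 5.19 to 5.78 in the 8 CR mice. Liver genes reached 10.67 in control mouse 2 and 8.5 in control mouse 1. In CR mice they reached 8.66 in mouse 4, 7.98 in mouse 6 and 7.88 in mouse 2. Ciliated duct genes were high in CR mice 1, 5 and 7 (7.52 to 8.3) and in control mice 3, 4 and 8 (7.32 to 8.26). The part of these transcripts in the differences described next was not tested beyond the fits that leave the arrays out.

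**Figure D1:**
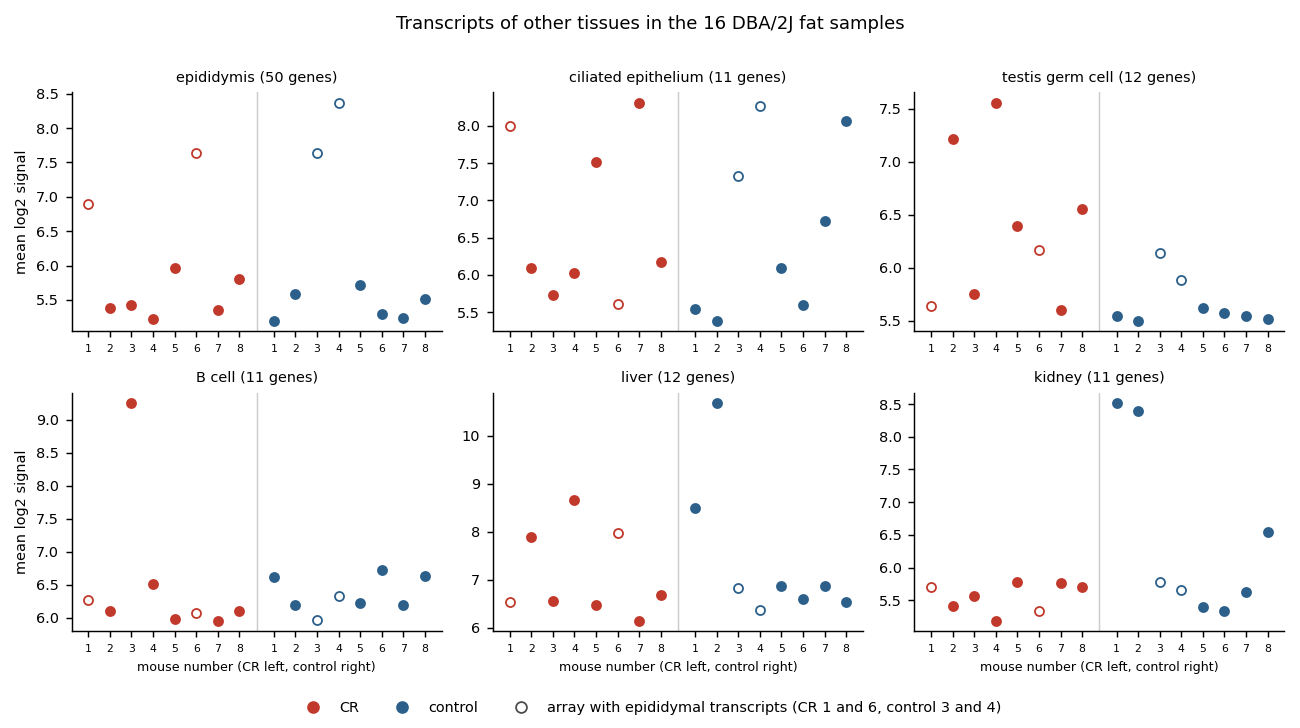
Mean log2 signal of the markers of 6 other tissues in each DBA/2J mouse (y axis), with CR mice on the left and control mice on the right of each panel; open points are the 4 arrays with epididymal transcripts. Epididymis genes reach 8.36 in control mouse 4, B cell genes 9.25 in CR mouse 3 and kidney genes 8.51 in control mouse 1.

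CR changed a small part of the DBA/2J transcriptome. Of 19938 genes, 177 (0.888%) passed an adjusted p of 0.05 in limma with Benjamini-Hochberg adjustment. Of these, 98 (0.492%) were higher and 79 (0.396%) lower in CR mice. At an unadjusted p of 0.01, the threshold that the study's methods use for a strain, 629 genes (3.15%) were higher and 575 (2.88%) lower, 1204 (6.04%) in all. At an unadjusted p of 0.05 these shares were 8.07% higher and 7.07% lower, and 57.4% of all genes had a positive and 42.6% a negative difference at any p. Without the 4 epididymal arrays 319 genes (1.6%) passed the adjusted threshold, 154 higher (0.772%) and 165 lower (0.828%), and 1345 (6.75%) the unadjusted one, 654 higher (3.28%) and 691 lower (3.47%). The size of the called differences ran from 0.22 to 1.72 with a median of 0.48. Only 14 of all genes (0.0702%) were higher, and 27 (0.135%) lower, in all 8 CR mice than in all 8 control mice, and 32 of the 177 called genes were of this kind, 9 higher and 23 lower.

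The number of calls moved strongly with single mice. Leaving out 1 mouse at a time gave between 10 and 439 calls. The count fell below 100 when any 1 of control mice 1, 4, 5, 6 or 7 or of CR mice 1, 2, 4, 5, 7 or 8 was left out, and was highest, 439, without control mouse 3, which is 1 of the epididymal arrays. All 177 genes kept their direction and an unadjusted p under 0.01 in all 16 such fits. They were called on the same arrays, of which each fit drops only 1, so that outcome was largely fixed by the choice of genes. Of the 177, 142 also passed the adjusted threshold without the 4 epididymal arrays. The 10 genes that passed it in every one of the 16 fits were Slc2a5, Tmem45a and Klf15, which were higher in CR mice, and Peg3, Emp1, Vnn1, Ntrk2, Pltp, Trp53inp2 and Unc79, which were lower.

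The 3 largest called increases on CR were Slc2a5, Acly and Thrsp, genes of sugar uptake and fat synthesis. Slc2a5, which encodes the fructose transporter GLUT5, had the largest of all called differences in either direction. Its log2 signal was 8.12 at the lowest, 9.2 at the median and 9.59 at the highest in CR mice, against 6.63, 7.15 and 8.5 in control mice. All CR mice but CR mouse 6, which read 8.12, exceeded the highest control. The difference was 1.72 (SE 0.27), or 3.29-fold (adjusted p = 0.016), and it was 1.98 without the epididymal arrays.

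Acly encodes ATP citrate lyase, which cuts exported citrate into the acetyl-CoA used for fatty acids. It read 10.78, 12.19 and 12.48 at the lowest, median and highest CR mouse, against 9.78, 10.76 and 11.35 in control mice, a rise of 1.33 (SE 0.26) or 2.51-fold (adjusted p = 0.034). Thrsp, a nuclear protein gene that rises with lipogenesis in liver and fat, read 11.69, 12.52 and 12.73 in CR mice, against 9.93, 11.35 and 11.77 in control mice. Its rise was 1.29 (SE 0.24; adjusted p = 0.034). In both genes 7 CR mice stood above all 8 controls, and CR mouse 6 was the exception.

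Of 21 adipocyte transcription factor genes 2 rose, Mlxipl and Klf15, while 11 had a positive and 10 a negative difference and the median of the list was 0. Mlxipl, whose product ChREBP senses sugar phosphates, read 9.17, 10.08 and 10.22 in CR mice, against 8.76, 9.16 and 9.75 in control mice, and rose by 0.71 (SE 0.16; adjusted p = 0.041). Klf15, a zinc finger factor induced by fasting and glucocorticoids, read 8.59, 8.92 and 9.08 in CR mice, against 8.24, 8.38 and 8.51 in control mice. All 8 CR mice exceeded all 8 control mice, and the rise of 0.53 (SE 0.07; adjusted p = 0.0064) was 1 of the 9 non-overlapping increases among the called genes. Srebf1, the gene of SREBP-1c, read 9.94, 10.24 and 10.6 in CR mice, against 9.97, 10.08 and 10.26 in control mice (difference 0.17, adjusted p = 0.40). The promoters of Acly, Thrsp and Klf15 are shown because these are 2 leading lipogenic genes and the regulator whose groups were fully separate. Each runs from 250 bases before to 50 after the RefSeq start in GRCm38.p6, at chr11:100527951-100528250 (minus strand) for Acly, chr7:97417501-97417800 (minus strand) for Thrsp and chr6:90462326-90462625 (plus strand) for Klf15. Capitals mark CACGTG, an E-box of the kind that basic helix-loop-helix factors such as ChREBP bind, and CCAAT on either strand, the letters that NF-Y binds.
Acly: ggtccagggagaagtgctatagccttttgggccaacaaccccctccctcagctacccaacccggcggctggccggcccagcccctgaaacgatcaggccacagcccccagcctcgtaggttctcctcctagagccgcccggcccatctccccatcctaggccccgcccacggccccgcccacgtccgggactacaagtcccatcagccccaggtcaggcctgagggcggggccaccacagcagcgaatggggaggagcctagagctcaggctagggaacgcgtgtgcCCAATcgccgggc
Thrsp: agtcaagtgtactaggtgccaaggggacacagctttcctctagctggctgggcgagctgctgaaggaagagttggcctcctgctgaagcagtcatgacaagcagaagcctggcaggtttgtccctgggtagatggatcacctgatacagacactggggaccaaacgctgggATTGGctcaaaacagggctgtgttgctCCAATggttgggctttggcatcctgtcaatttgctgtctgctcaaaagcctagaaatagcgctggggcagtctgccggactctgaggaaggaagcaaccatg
Klf15: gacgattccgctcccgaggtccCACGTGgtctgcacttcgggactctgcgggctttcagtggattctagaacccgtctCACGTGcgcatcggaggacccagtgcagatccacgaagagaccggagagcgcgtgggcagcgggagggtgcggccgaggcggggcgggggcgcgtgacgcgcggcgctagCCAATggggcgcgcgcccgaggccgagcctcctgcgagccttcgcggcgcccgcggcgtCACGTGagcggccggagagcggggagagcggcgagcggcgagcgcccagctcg
Klf15 held 3 copies of CACGTG and 1 of CCAAT, Thrsp 2 copies of CCAAT and Acly 1. Over the 27025 RefSeq promoters of this length, 7.24% held CACGTG and 37.9% held CCAAT on either strand. Of the 98 genes that rose, 74 had a promoter in the table, of which 8 (10.8%) held CACGTG and 30 (40.5%) CCAAT. Of the 79 that fell, 64 had one, of which 4 (6.25%) and 20 (31.2%) held these letters. A match describes the letters of the window and says nothing of binding.

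Across the fatty acid synthesis list, 4 of 20 measured genes rose at the adjusted threshold, Thrsp, Aacs, Acly and Mlxipl, and 0 fell in limma. At an unadjusted p of 0.01 there were 11 higher and 0 lower, against 3.15% of all genes higher, and at 0.05 there were 12 higher and 0 lower. The median difference of the list was 0.55, against 0.02 over all genes. The enzymes that pass only the unadjusted threshold included Acaca, the rate-limiting acetyl-CoA carboxylase (0.65, adjusted p = 0.064), Fasn, the fatty acid synthase (0.47, adjusted p = 0.079), Me1, a source of NADPH (0.64, adjusted p = 0.074), and the elongase gene Elovl6 (0.90, adjusted p = 0.089). Aacs, which activates acetoacetate for lipid synthesis, rose by 0.65 (adjusted p = 0.034). Without the epididymal arrays 10 of the 20 passed the adjusted threshold. Without CR mice 2, 4 and 8, which carried germ cell transcripts, 4 were higher at the unadjusted p of 0.01. Over all genes the number higher at that p also fell in that fit, from 629 to 168.

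**Figure D2:**
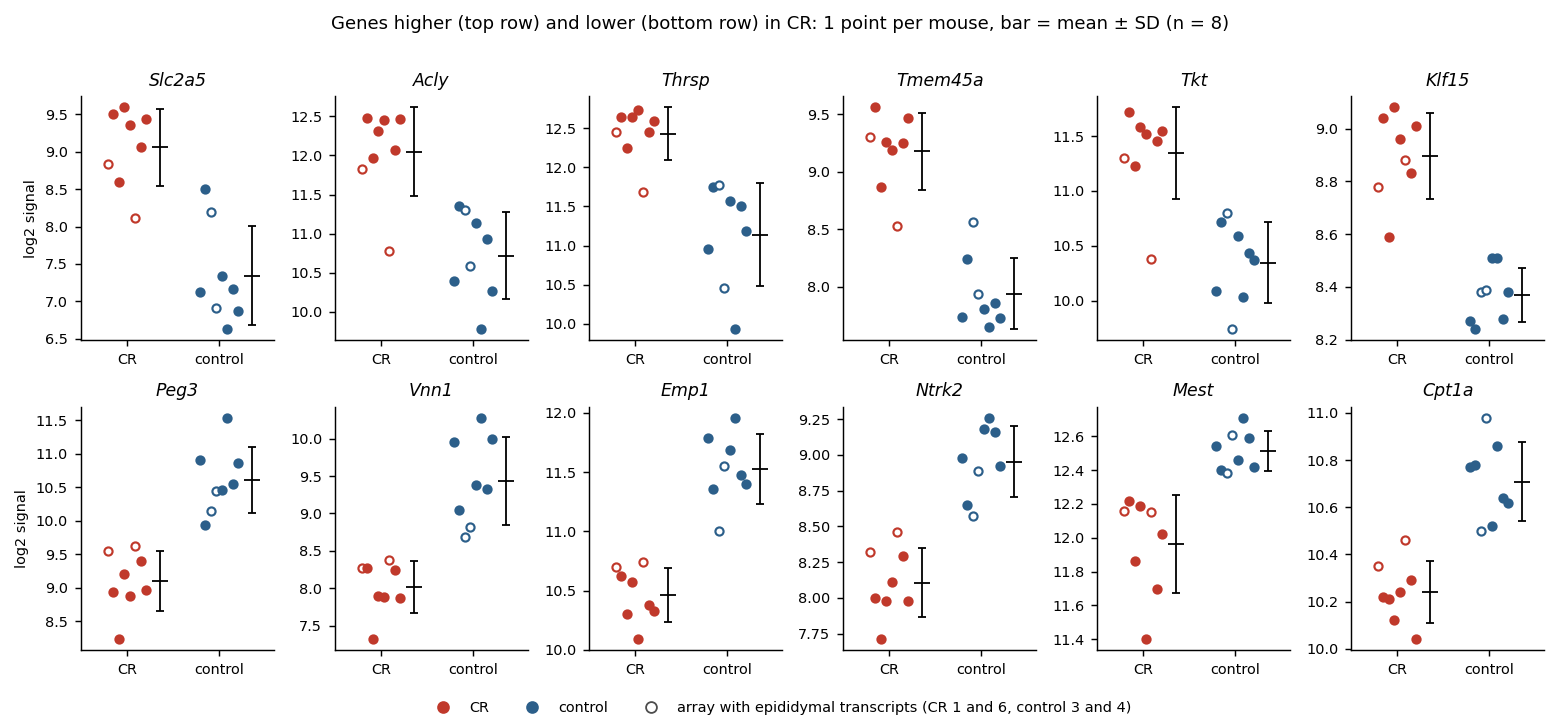
Log2 signal (y axis) of 6 genes higher and 6 genes lower in CR mice, with CR mice to the left of control mice; each point is 1 mouse, bars are means ± SD (n = 8 each), and open points are the 4 epididymal arrays. Peg3, Vnn1, Emp1, Ntrk2, Mest and Cpt1a show no overlap between diets, nor does Klf15, while Acly and Tkt each have 1 low CR mouse.

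Genes of glucose handling were higher too. Of 22 genes for glucose uptake, glycolysis and the pentose phosphate path, 5 rose at the adjusted threshold and 0 fell in limma, and 14 were higher and 0 lower at an unadjusted p of 0.01 (15 and 0 at 0.05), with a median of 0.32. Tkt, the transketolase of the pentose phosphate path, read 10.38, 11.49 and 11.72 in CR mice, against 9.74, 10.4 and 10.8 in control mice, and rose by 0.99 (SE 0.18; adjusted p = 0.032). Slc2a4, the insulin-responsive glucose transporter GLUT4, read 9.73, 10.35 and 10.66 in CR mice, against 8.96, 9.69 and 10.08 in control mice, and rose by 0.69 (adjusted p = 0.045). Of the 8 CR mice, 7 stood above all controls for Tkt and 6 for Slc2a4. Pgk1 rose by 0.61 (adjusted p = 0.034) and Tpi1 by 0.38 (adjusted p = 0.041), both enzymes of glycolysis. Gbe1, the glycogen branching enzyme, rose by 0.93 (SE 0.17; adjusted p = 0.034).

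The link from glycolysis to citrate was also higher. Of 29 pyruvate dehydrogenase and citric acid cycle genes, 2 rose, and 10 were higher and 0 lower at an unadjusted p of 0.01. Dlat, the acetyltransferase core of pyruvate dehydrogenase, read 10.36, 11.09 and 11.31 in CR mice, against 9.73, 10.2 and 10.64 in control mice, a rise of 0.81 (SE 0.14; adjusted p = 0.025). Pdhb, a subunit of its first enzyme, rose by 0.67 with an adjusted p of 0.0498, just inside the threshold, and its partner Pdha1 differed by 0.50 with 0.0512, just outside it. Slc25a10, the dicarboxylate carrier of the mitochondrial inner membrane, rose by 0.63 (adjusted p = 0.042).

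A single CR mouse stood apart in these genes. CR mouse 6, one of the epididymal arrays, was the lowest CR mouse for 13 of the 20 fatty acid synthesis genes and 16 of the 22 glucose genes, and for 57 of the 98 genes that rose (58.2%), against 18.3% of all genes. In 42 of the 98, 7 CR mice exceeded the highest control, and in 27 of these CR mouse 6 was the lowest. CR mouse 3, the array with B cell transcripts, was lowest for the other 7 fatty acid synthesis genes. Among the controls, mouse 6 was lowest for 12 of these 20 genes. Leaving out CR mouse 6 left the median of the list at 0.62, against 0.55 with it.

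**Figure D3:**
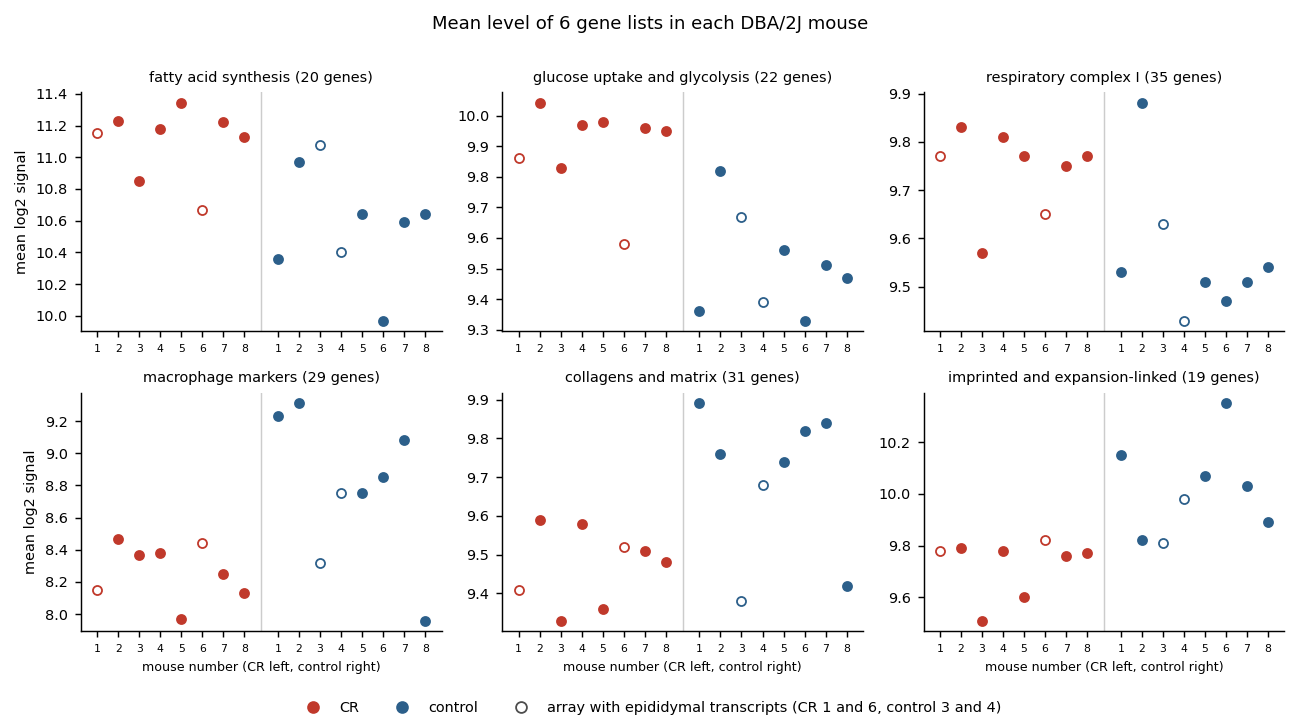
Mean log2 signal of 6 gene lists in each DBA/2J mouse (y axis), CR left of control, with open points for the 4 epididymal arrays. The fatty acid synthesis mean spans 10.67 to 11.34 in CR mice and 9.97 to 11.08 in control mice, so 1 or more mice overlap, and the macrophage mean spans 7.97 to 8.47 in CR mice and 7.96 to 9.31 in control mice.

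Some genes that join fatty acids to glycerol were higher too, whereas few of those that release them changed. Of 18 triacylglycerol synthesis genes 3 rose, against 0.492% of all genes. At an unadjusted p of 0.01, 9 were higher and 0 lower, against 3.15% of all genes higher. At any p 11 had a positive and 7 a negative difference, against 57.4% of all genes positive, and the median was 0.15. Mogat2, a monoacylglycerol acyltransferase, rose by 0.84 (adjusted p = 0.032), Gpd1, which makes glycerol 3-phosphate, by 0.59 (adjusted p = 0.042), and Dgat2, which adds the last acyl chain, by 0.26 (adjusted p = 0.041). Dgat2 levels were 13.07, 13.17 and 13.29 in CR mice, against 12.72, 12.9 and 13.1 in control mice. Among 15 lipolysis and lipid droplet genes, 0 passed the adjusted threshold in limma, 1 was higher at an unadjusted p of 0.01, and 1 was higher and 3 were lower at 0.05, against 8.07% and 7.07% of all genes.

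In the mitochondrial lists many small differences pointed upwards. Of 35 complex I genes 33 had a positive difference, against 57.4% of all genes, 10 were higher and 0 lower at an unadjusted p of 0.01, and 1, Ndufa8, rose at the adjusted threshold (0.31, adjusted p = 0.041). Ndufa8 read 10.38, 10.52 and 10.59 in CR mice, against 10.04, 10.17 and 10.56 in control mice. Of the 8 controls, mouse 2 alone reached into the CR range. Of 36 genes of complexes III and IV and ATP synthase, 3 rose, Cox5a (0.42), Atp5o (0.33) and Atp5g3 (0.26), and 9 were higher at an unadjusted p of 0.01. The corresponding count was 15 of 52 for mitochondrial ribosome proteins, of which Mrps15 rose by 0.30, and 8 of 33 for proteasome subunits, of which Psmb5 rose by 0.37.

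Control mouse 2, the array with liver and kidney transcripts, had the highest control level for 29 of the 35 complex I genes. It also had the highest mean of 18 brown and beige adipocyte markers, genes of mitochondria-rich fat cells, at 8.92, against 7.27 to 8.17 in CR mice and 7.17 to 7.86 in the other controls, and the highest control level for 14 of the 18. Ucp1, the uncoupling protein that defines brown fat, was at 10.64 in CR mouse 3 and 6.44 to 8.71 in the other CR mice, against 11.62 in control mouse 2 and 6.15 to 8.23 in the other controls. Of these markers 0 passed the adjusted threshold in limma, and 3 were higher and 0 lower at an unadjusted p of 0.05. Without control mouse 2 the numbers higher at an unadjusted p of 0.01 were 20 of 35 for complex I and 19 of 36 for complexes III to V, and the complex I median was 0.22, against 0.18 with that mouse. Over all genes 750 were higher at that p without control mouse 2, against 629 with it. Mitochondrial import genes were drawn up as a list after their values were seen, and 4 of 30 rose, Timm8a1 (0.40), Hspa9 (0.43), Timm10 (0.37) and Timm23 (0.30). Of 26 antioxidant and detoxification genes 2 rose, Sod2, the mitochondrial superoxide dismutase, by 0.39 and the mitochondrial thioredoxin gene Txn2 by 0.30, while 13 had a positive and 13 a negative difference and 5 were higher and 5 lower at an unadjusted p of 0.05. Nampt, the rate-limiting enzyme of NAD salvage, read 9.89, 10.15 and 10.29 in CR mice, against 9.2, 9.41 and 9.94 in control mice, and rose by 0.60 (SE 0.11; adjusted p = 0.032), with 7 CR mice above all controls.

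Of the 15 largest called increases, 8 fell outside these pathways. Tmem45a, a membrane protein gene, read 8.53, 9.26 and 9.56 in CR mice, against 7.65, 7.83 and 8.56 in control mice. The single overlap was CR mouse 6 with control mouse 3, both epididymal arrays. The rise was 1.24 (SE 0.15; adjusted p = 0.0024), and 1.43 without those arrays. Parm1, a mucin-like protein gene, rose by 0.95, Adcy10, the soluble adenylyl cyclase, by 0.93, Cdkn2c, a cell cycle inhibitor, by 0.89, Trhde, an enzyme that cuts thyrotropin-releasing hormone, by 0.89, the predicted gene Gm9696 by 0.83, Enpep, which cuts angiotensin II, by 0.79, and the dehydrogenase gene Dhrs7 by 0.75. Their adjusted p ran from 0.019 to 0.046.

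More cholesterol synthesis genes were higher than lower, but 1 fell at the adjusted threshold. Fdps, which makes farnesyl diphosphate, rose by 0.71 (SE 0.14; adjusted p = 0.039) and Lss, the lanosterol synthase, by 0.66 (adjusted p = 0.041). Hmgcs1, which makes HMG-CoA at the entry of the pathway, fell by 0.45 (SE 0.10; adjusted p = 0.046). Its levels were 9.7, 10.27 and 10.57 in CR mice, against 10.5, 10.68 and 10.91 in control mice, and 7 CR mice lay below every control. Of the 20 genes of the list, 5 were higher and 1 lower at an unadjusted p of 0.01, with a median of 0.19. At 0.05, 7 were higher and 1 lower, and at any p 14 had a positive and 6 a negative difference.

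The leading decreases on CR included imprinted genes that mark expanding fat. Peg3, a zinc finger gene expressed from the paternal allele, read 8.23, 9.08 and 9.62 in CR mice, against 9.94, 10.51 and 11.54 in control mice. The groups did not overlap, and the difference was -1.51 (SE 0.22), or 0.351-fold (adjusted p = 0.01). Its imprinted neighbour Zim1 read 6.14, 6.64 and 7.06 in CR mice, against 7.26, 7.6 and 9.56 in control mice (difference -1.22, adjusted p = 0.041), again without overlap. Mest, whose expression in mouse fat follows fat mass, read 11.4, 12.09 and 12.22 in CR mice, against 12.38, 12.5 and 12.71 in control mice, and fell by 0.55 (SE 0.11; adjusted p = 0.034). No CR mouse reached the lowest control. Nnat fell by 0.37 and Trp53inp2, an autophagy regulator, by 0.57. Of the 19 imprinted and expansion-linked genes measured, 5 fell and 0 rose at the adjusted threshold, and 7 were lower and 1 higher at an unadjusted p of 0.01, while the median of the list was -0.07. The members that moved were a minority of the list.

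Several non-overlapping decreases were single genes of other roles. Vnn1, a pantetheinase regulated by PPARs, read 7.32, 8.07 and 8.38 in CR mice, against 8.68, 9.35 and 10.28 in control mice (difference -1.42, SE 0.22, adjusted p = 0.016). Emp1, an epithelial membrane protein gene, read 10.09, 10.47 and 10.74 in CR mice, against 11.0, 11.52 and 11.96 in control mice (difference -1.06, SE 0.12, adjusted p = 0.0024). Ntrk2, the receptor of BDNF, read 7.71, 8.06 and 8.46 in CR mice, against 8.57, 8.95 and 9.26 in control mice (difference -0.85, SE 0.12, adjusted p = 0.0065). Each of the 3 genes was lower in all 8 CR mice than in any control. Pltp, which transfers phospholipids between lipoproteins, fell by 0.57 and Mmp14, a membrane matrix metalloproteinase, by 0.68, both also without overlap. Unc79, part of the NALCN sodium leak channel complex, fell by 0.65.

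Fat burning and nutrient signalling changed in a few genes. Cpt1a, which commits fatty acids to mitochondrial oxidation, read 10.04, 10.23 and 10.46 in CR mice, against 10.5, 10.7 and 10.98 in control mice, and fell by 0.47 (SE 0.08), to 0.723-fold of control (adjusted p = 0.019). It was the only 1 of 23 beta-oxidation genes to pass the adjusted threshold, and the list median was 0.06. In the insulin and IGF list, 2 of 24 genes fell, Sesn2, a stress-induced inhibitor of mTORC1, by 0.58 (7.82, 8.24 and 8.54 in CR mice, against 8.4, 8.81 and 9.43 in control mice) and Grb14, an adaptor that inhibits the insulin receptor, by 0.58 (6.97, 7.27 and 7.67 in CR mice, against 7.4, 7.93 and 8.16 in control mice). Both had an adjusted p of 0.041. Hilpda, a lipid droplet protein that inhibits adipose triglyceride lipase, fell by 0.84 (adjusted p = 0.039).

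Further large decreases had wide ranges among the control mice. Snord118, the U8 small nucleolar RNA, read 7.21, 7.45 and 8.57 in CR mice, against 7.5, 9.34 and 10.98 in control mice (difference -1.71, SE 0.37, adjusted p = 0.041). Its groups overlapped. Ifi27l2a, an interferon-inducible gene, read 8.36, 8.71 and 9.73 in CR mice, against 8.77, 10.39 and 10.89 in control mice (difference -1.37, adjusted p = 0.034). Of 22 genes in the interferon-stimulated list 0 passed in limma, with 2 higher and 2 lower at an unadjusted p of 0.05. The secretin receptor gene Sctr fell by 0.79, the RNA-editing enzyme gene Apobec1 by 0.80, and the secreted and scaffold protein genes Srpx2 and Sh3pxd2a by 0.89 and 0.85.

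Macrophage genes averaged lower in CR mice, but control mice varied widely. In bulk tissue fewer cells of a type and less RNA per cell cannot be told apart. The mean of 29 macrophage markers lay between 7.97 and 8.47 in CR mice, with a median of 8.31, and between 7.96 and 9.31 in control mice, with a median of 8.8. Control mouse 8 (7.96) and control mouse 3 (8.32) stood below the highest CR mouse and the other 6 controls above it. At the adjusted threshold 1 of the 29 fell, Lilrb4a, an inhibitory receptor of myeloid cells (-0.78, adjusted p = 0.041), and its near-identical neighbour Lilr4b fell by 1.03, so the probe sets may share signal. At an unadjusted p of 0.01, 13 were lower and 0 higher, against 2.88% of all genes lower, and the median was -0.48.

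Several members with large differences are known from lipid-laden macrophages. Itgax, the CD11c integrin, read 6.67, 7.24 and 7.86 in CR mice, against 7.26, 8.25 and 8.85 in control mice (difference -0.98, adjusted p = 0.071). Trem2, a lipid receptor, read 7.8, 8.0 and 8.35 in CR mice, against 7.68, 8.87 and 9.63 in control mice (difference -0.78, adjusted p = 0.092). Atp6v0d2, a proton pump subunit of these cells, read 6.33, 7.23 and 8.28 in CR mice, against 6.82, 9.14 and 10.02 in control mice (difference -1.59, adjusted p = 0.062). In each of these genes the groups overlapped. Clec12a, an inhibitory myeloid lectin outside the list, fell by 1.07 (adjusted p = 0.041) and Adap2 by 0.85 (adjusted p = 0.034).

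The macrophage count depended on the controls, as did the count of decreases over all genes. Control mouse 8, which carried ciliated duct and smooth muscle transcripts, was the lowest control for 22 of the 29 genes, and control mouse 2 the highest for 17. Without control mouse 8, 12 of the 29 fell at the adjusted threshold and 19 were lower at the unadjusted p of 0.01. Over all genes 180 fell and 700 were lower in that fit, against 79 and 575 with all 16 arrays. Without control mice 1 and 2, which carried kidney and liver transcripts, 0 of the 29 fell and 6 were lower. Over all genes 18 fell and 317 were lower there. The median stayed between -0.62 and -0.35 in these fits.

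Matrix genes shifted less. Of 31 collagen and matrix genes 28 had a negative difference, against 42.6% of all genes, Mmp14 fell, and 9 were lower and 0 higher at an unadjusted p of 0.01, among them Col6a3 (-0.31, adjusted p = 0.085), Col1a1 (-0.29, adjusted p = 0.11) and Thbs1, a matrix glycoprotein gene (-1.24, adjusted p = 0.095). The median was -0.16. Without the epididymal arrays 4 of the 31 fell at the adjusted threshold in limma, and 6 were lower at an unadjusted p of 0.01. The 4 were Mmp14, Col6a3 (adjusted p = 0.034), Col1a1 (adjusted p = 0.048) and Thbs1 (adjusted p = 0.036). Without control mice 1 and 2 the number lower at 0.01 was 2. Over all genes it was 317 in that fit, against 575 with these mice. In 24 lysosome and proton pump genes, Atp6v1h, a subunit of the proton pump, rose by 0.36 (9.09, 9.35 and 9.52 in CR mice, against 8.8, 8.97 and 9.18 in control mice) and 4 were lower at an unadjusted p of 0.01. Cytokine and chemokine genes gave 0 calls in limma among 30, with 1 higher and 3 lower at an unadjusted p of 0.01, and 1 higher and 8 lower at 0.05, against 8.07% and 7.07% of all genes.

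**Figure D4:**
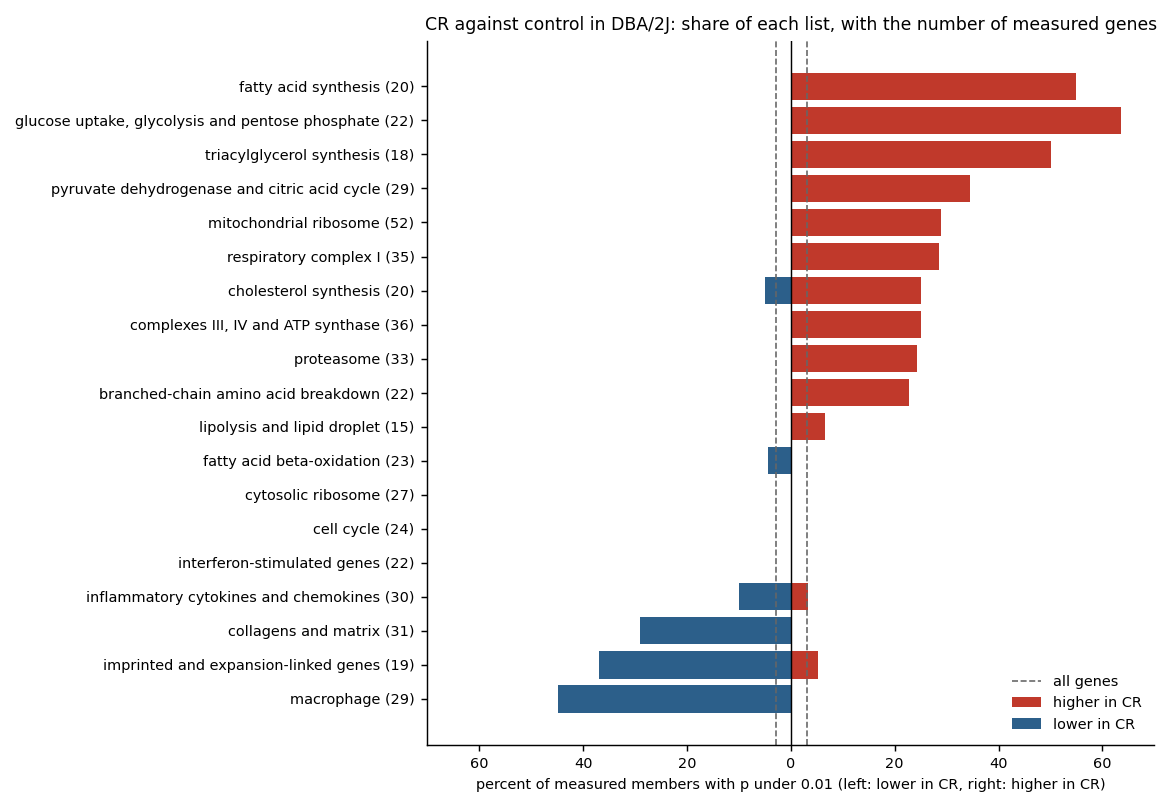
Percent of each list's measured genes that were higher or lower in CR mice at an unadjusted p of 0.01 (x axis), with dashed lines at the share of all genes (3.15% higher, 2.88% lower). Fatty acid synthesis (11 of 20) and glucose genes (14 of 22) lie farthest to the higher side and macrophage genes (13 of 29) farthest to the lower side of the lists drawn.

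The cell cycle and cytosolic ribosome lists showed little change. Of 24 cell cycle genes 0 passed the adjusted threshold in limma, with 0 higher and 1 lower at an unadjusted p of 0.05, and of 27 cytosolic ribosome genes 0 passed, with 1 higher and 1 lower at 0.05. Adipocyte markers gave 0 calls among 12, with 1 higher and 2 lower at 0.05, and 2 had a positive and 10 a negative difference. Without the epididymal arrays 1 of the 12 fell at the adjusted threshold in limma. In that fit 1 was higher and 5 were lower at 0.05, against 1684 higher and 1595 lower of all 19938 genes. Adipoq read 12.28, 12.66 and 12.77 in CR mice, against 12.61, 12.78 and 12.92 in control mice (difference -0.14, adjusted p = 0.33), and Lep, the leptin gene, 10.96, 11.4 and 11.67 in CR mice, against 11.07, 11.79 and 12.06 in control mice (difference -0.34, adjusted p = 0.23). Of 11 genes that the study took to qPCR, 10 were analysed here, of which 3 rose and 1 fell at the adjusted threshold, and 8 were higher and 2 lower at an unadjusted p of 0.01. That list was chosen on these samples and is no independent evidence of its direction.

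To ask whether DBA/2J responds differently, the DBA/2J difference was set against the mean difference of C3H/HeJ, CBA/J and B6C3F1/J, which ate the same portions, in 1 fit of all 14 groups. The CR effect was more positive in DBA/2J for 465 genes (2.33%) and more negative for 246 (1.23%) at an adjusted p of 0.05. These counts include transcripts of other tissues, with 6 of 12 germ cell genes among the more positive and 6 of 11 kidney genes among the more negative. The comparison strains also carried epididymal transcripts unevenly. The median difference of the 50 epididymis genes was 1.07 in CBA/J, -0.02 in C3H/HeJ and -0.09 in B6C3F1/J, against -0.1 in DBA/2J, and 1.03 in C57BL6/J. Only DBA/2J arrays were left out for such transcripts, and their part in other strains was not tested. The lipogenic effect had the same sign in the 3 strains and was on average smaller in DBA/2J, but the test of the difference rested on few genes and on single arrays. The median of the fatty acid synthesis list, on the probe sets chosen over all 112 arrays, was 0.56 in DBA/2J, against 1.09 in the mean of the 3 strains. All 20 members had the lower value in DBA/2J, as did 8816 of all 19938 genes. Single strains differed, with medians of 0.88 in C3H/HeJ, 0.91 in CBA/J and 1.53 in B6C3F1/J, and of 1.1 in 129S1/SvImJ, 0.99 in C57BL6/J and 0.47 in Balbc/J, which lay below DBA/2J. For 6 of the 20, Slc25a1, Mid1ip1, Elovl6, Acaca, Acacb and Acss2, the difference itself passed the adjusted threshold. This number was 0 in limma without the 4 epididymal arrays, 1 without control mouse 3, CR mouse 3 or CR mouse 6, 2 without control mouse 2 or 8, 3 without control mouse 5 or 7 or CR mouse 4 or 8, and at most 8 in any setting. Against all 6 other strains 1 of the 20 passed. For Elovl6 the effect was 0.90 in DBA/2J and 2.25 in the mean of the 3 strains (difference between effects -1.36, SE 0.41, adjusted p = 0.042). For Acly the corresponding values were 1.33 and 2.35 (difference -1.02, adjusted p = 0.14), and for Slc2a5 1.72 and 2.61 (difference -0.89, adjusted p = 0.26).

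Sterol genes also averaged a smaller effect in DBA/2J. The cholesterol synthesis median was 0.19 in DBA/2J, against 0.67 in the 3 strains, and 4 of 20 genes passed the test of the difference. This number was 2 without the epididymal arrays and 8 with a replicate block, and 1 of the 20 passed against all 6 other strains. Insig1, a sterol sensor of the endoplasmic reticulum that holds SREBP back, read 10.37, 10.82 and 11.08 in CR mice, against 10.27, 10.97 and 11.33 in control mice. Its difference in DBA/2J was -0.07, against 0.98 in the 3 strains (difference between effects -1.05, SE 0.24, adjusted p = 0.0032).

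The CR effect on macrophage genes was smaller in DBA/2J than in the mean of the 3 strains on the same portions, but not shown to differ from the mean of all 6. The list median was -0.48 in DBA/2J, against -1.21 in the 3 strains. All 29 genes had the less negative effect in DBA/2J, while 11122 of all 19938 genes had the more positive effect there. Of the 29, 19 passed the test of the difference, against 2.33% of all genes in that direction. This number was 10 without the epididymal arrays, 12 without control mouse 8, 9 with array weights and at most 22, without control mouse 2. By strain the median was -0.75 in C3H/HeJ, -1.53 in CBA/J and -1.35 in B6C3F1/J, and -0.72 in 129S1/SvImJ, -0.62 in C57BL6/J and -0.07 in Balbc/J. Against all 6 strains, with a median of -0.85, 0 of the 29 passed in limma, and 7 passed when Balbc/J was left out. Itgax differed by -0.98 in DBA/2J, against -2.51 in the 3 strains (difference between effects 1.53, SE 0.28, adjusted p = 0.00026), and Trem2 by -0.78, against -1.93 (difference 1.15, SE 0.20, adjusted p = 0.00014). For Ctsk, a lysosomal protease gene, the effects were -0.50 in DBA/2J and -1.74 in the 3 strains (difference 1.24, SE 0.21, adjusted p = 9.9e-05). For Tlr13, a receptor of bacterial ribosomal RNA, they were -0.58 and -1.99 (difference 1.41, SE 0.23, adjusted p = 5.4e-05). Gpnmb, a glycoprotein of lipid-laden macrophages, averaged 6.59 in CR and 7.56 in control DBA/2J mice, whereas control mice of the 3 strains averaged 11.54 to 12.04. Its effects were -0.98 and -2.83 (difference 1.86, SE 0.34, adjusted p = 0.00021), and DBA/2J is known to carry a premature stop codon in this gene.

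**Figure D5:**
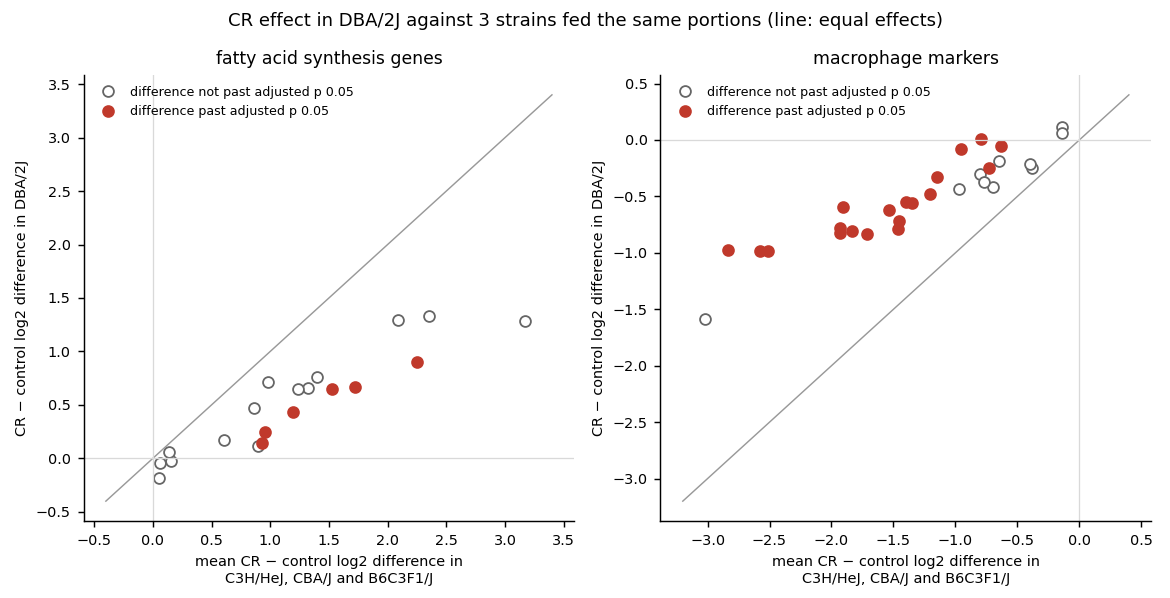
CR minus control (log2) in DBA/2J (y axis) against the mean of C3H/HeJ, CBA/J and B6C3F1/J (x axis) for fatty acid synthesis and macrophage genes; each point is 1 gene and the line marks equal effects. All 20 fatty acid synthesis genes lie below the line and all 29 macrophage genes above it, with list medians of 0.56 against 1.09 and -0.48 against -1.21. Of all 19938 genes, 8816 had the lower and 11122 the higher effect in DBA/2J.

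Among the genes with the smallest p in this test, Cacna1e, Gabrr2 and Htr2b had a negative effect in the 3 strains and one close to 0 in DBA/2J. Cacna1e, a neuronal calcium channel gene, read 5.75, 6.03 and 6.17 in CR mice, against 5.67, 5.91 and 6.21 in control mice, a difference of 0.09, whereas the mean of the 3 strains was -1.07 (difference between effects 1.16, SE 0.18, adjusted p = 1.9e-05). For Gabrr2, a GABA receptor subunit gene, the effects were -0.04 in DBA/2J and -1.34 in the 3 strains (difference 1.30, SE 0.20, adjusted p = 1.9e-05). For Htr2b, a serotonin receptor gene, they were -0.16 and -1.24 (difference 1.08, adjusted p = 1.9e-05). Array levels of Cacna1e and Htr2b were below the median of all probe sets (6.79) in both DBA/2J groups. For others the effect was positive in the 3 strains and smaller or negative in DBA/2J. For Unc5a, a netrin receptor gene, the effects were 0.38 in DBA/2J and 1.73 in the 3 strains (difference -1.35, SE 0.24, adjusted p = 0.00014), for Mill1, an MHC class I-like gene, 0.14 and 1.48 (difference -1.34, adjusted p = 9.6e-05), and for Kit, a stem cell factor receptor gene, -0.21 and 0.31 (difference -0.51, adjusted p = 0.00016). In the opposite direction, Tmem45a had an effect of 1.24 in DBA/2J and of 0.15 in the 3 strains (difference 1.08, SE 0.22, adjusted p = 0.00088).

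Against the mean of all 6 other strains, whose portions were not all the same, the CR effect was higher for 68 genes (0.341%) and lower for 65 (0.326%). Here 5 of 12 germ cell genes were among the higher and 5 of 11 kidney genes among the lower. Bst1, an ectoenzyme gene of myeloid and stromal cells, had an effect of 0.46 in DBA/2J, against -0.52 in the 6 strains (difference 0.98, SE 0.18, adjusted p = 0.0017). Prm1, the protamine of sperm, was at 11.11 in CR mouse 2, 11.21 in CR mouse 4 and 6.76 to 9.66 in the other CR mice, against 6.6 to 8.3 in control mice, and its difference of 1.71 exceeded that of the 6 strains by 1.62 (SE 0.31, adjusted p = 0.0023). Of 12 germ cell genes, all 12 had a positive difference in DBA/2J, and the germ cell mean of CR mice 2 and 4 was 7.21 and 7.55. Cdrt4 was at 7.27 and 7.29 in the same CR mice 2 and 4, at 5.26 to 5.95 in the other CR mice and at 5.05 to 5.51 in control mice (difference from the 6 strains 0.82, adjusted p = 0.00076). Kap, an androgen-regulated kidney gene, was at 4.75 to 5.87 in CR mice, against 10.79 in control mouse 1 and 10.8 in control mouse 2, the arrays with high kidney genes, and 5.13 to 7.98 in the other controls. Its effect minus that of the 6 strains was -1.91 (adjusted p = 0.0016). Within DBA/2J none of these 3 genes passed the adjusted threshold. Without CR mice 2, 4 and 8 the difference of Prm1 was 0.64 and that of Cdrt4 0.36, against 1.71 and 0.80 with them, and without control mice 1 and 2 that of Kap was -0.74, against -1.92 with them.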

How the data were processed

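Total RNA from the fat of 112 mice, 8 per strain and diet, was hybridised to 1-colour Affymetrix Mouse Gene 1.0 ST arrays. The authors summarised the arrays to gene level by RMA in Affymetrix Expression Console, and the deposited values are log2 signals. Neither its version nor the set of arrays summarised in 1 run is given in the sources used here. RMA forces similar distributions, so the 16 DBA/2J medians ran only from 6.75 to 6.86.

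Of 35556 probe sets, 21789 named 1 gene symbol in the platform annotation, 1621 named several and 12146 were not listed there. The brightest probe set over the 16 arrays was kept for each of 19938 genes, without a filter on dim genes. CR was compared with control by limma 3.58.1 (lmFit, eBayes) in R 4.3.3, with Benjamini-Hochberg adjustment, on the 16 arrays alone and without control mice 3 and 4 and CR mice 1 and 6. Differences between strains were tested in 1 limma fit of 14 groups and 112 arrays. The number of arrays limits the precision.

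Members and lists were chosen with earlier results of these data known. The text names the 15 largest calls in each direction that kept direction and p under 0.05 without the epididymal arrays, and others are drawn from the 5 smallest p in each list, defining genes, the study's qPCR genes, the 5 cell type markers of widest range, and the 5 smallest p in each direction for each strain contrast. Promoters came from RefSeq (GRCm38.p6). Alternatives covered the test, the dim-gene filter, probe set choice, normalization, array weights, a replicate block and left-out mice. The fit was tested on simulated data with 200 changed genes. No label pairs the mice that share a replicate number in both diets, and only 1 of 8 pairs of deviations correlated above 0.1. Since single arrays also carried transcripts of other tissues, low correlations cannot show whether the mice were paired.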

Additional observations from a re-analysis of the deposited data

Results flagged for a closer look

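Of 272 groups of 8 mice checked for a mouse far from the rest, 34 held one. Chance alone gives about 1 in 20 only for independent groups not chosen by their values, so that rate is no yardstick here. Gpx5, Spint4, Lcn8 and Defb48 were included for their wide range over these arrays, and CR mouse 6 recurs in related genes. The figure given is the gap to the nearest other mouse over the whole range of the group. CR mouse 6 was the lowest CR mouse for Acly (0.618), Thrsp (0.538), Tkt (0.634), Gbe1 (0.602), Dhrs7 (0.554), Acaca (0.653), Me1 (0.592), Fasn (0.673), Elovl6 (0.566), Gpd1 (0.661) and Gpd2 (0.59), and the highest for the epididymal gene Spint4 (0.725). Control mouse 2 was the highest control for Ndufa8 (0.596), Cox5a (0.556) and Timm8a1 (0.609). CR mouse 3 was the lowest CR mouse for Hmgcs1 (0.529), Col6a3 (0.639), Adipoq (0.755) and Gatb (0.585), and the highest for the mean of T and NK cell markers (0.845), B cell markers (0.833) and neutrophil markers (0.695).

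The remaining such mice were CR mouse 1, highest for Lcn8 (0.785), and 6 control mice. Control mouse 3 was lowest for Ifi27l2a (0.547) and highest for Spint4 (0.625), and control mouse 4 was highest for Gpx5 (0.532), Lcn8 (0.697) and Defb48 (0.636) and lowest for Gatb (0.543) and for seminal vesicle and prostate markers (0.618). Control mouse 6 was highest for Zim1 (0.617), control mouse 1 for Mmp14 (0.542), control mouse 5 for Mrpl41 (0.537) and control mouse 8 for smooth muscle markers (0.667).

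The CR effect in DBA/2J differed from that of other strains in limma's test of the difference for the genes with the smallest p in each direction. Against the 6 other strains the difference between effects was 0.98 for Bst1, 1.14 for Cacna1e, 0.82 for Cdrt4, 1.18 for Gabrr2 and 1.62 for Prm1, and -0.48 for Efna1, -1.91 for Kap, -0.48 for Kit, -0.44 for Mr1 and -0.38 for Mrpl41. Against the 3 strains on the same portions it was 0.92 for B430306N03Rik, 1.16 for Cacna1e, 1.3 for Gabrr2, 1.08 for Htr2b and 1.41 for Tlr13, and -0.53 for Gatb, -0.51 for Kit, -1.34 for Mill1, -0.91 for Snhg11 and -1.35 for Unc5a. Prm1 and Cdrt4 were high in CR arrays with germ cell transcripts, and Kap in control arrays with kidney transcripts. For these genes carried-over tissue and a response of fat cannot be told apart.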

How the results depend on the processing

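The count of 177 called genes depended strongly on the processing. It was 10 with the methods' t-test on raw signals, 13 with a t-test on log2 values (both after Benjamini-Hochberg), 994 in 1 model of all 14 groups, 465 with dim genes removed, 279 after quantile normalization, 48 with arrays centred on their medians, 1894 with array weights, 281 with trend and robust variance and 85 with a replicate block, and 10 to 439 with 1 mouse left out. In settings chosen after seeing the data it was 107 without control mice 1 and 2, and 0 in limma both without control mouse 8 and CR mice 5 and 7 (2693 genes at an unadjusted p of 0.05) and without CR mice 2, 4 and 8 (1571). Without CR mouse 3 the 319 calls of the 12-array fit became 581. The replicate number pairs no mice by any label, pair correlations of deviations ran from -0.363 to 0.375, and the block shared 64 calls with the fit without it. The 1204 genes at p under 0.01 became 1849 in the model of 14 groups, 2531 with array weights, 459 without CR mice 2, 4 and 8, and 820 to 1430 with 1 mouse left out. The 133 genes differing from the 6 strains became 384 with array weights, 208 with the replicate block, 370 without Balbc/J, and 57 to 217 with 1 mouse left out. The 711 differing from the 3 strains on the same portions stayed within 1.5 times, at 509 to 804 with 1 mouse left out. Of 67 named genes that were called, 0 reversed among 2072 alternative values, 1125 kept the call and 947 lost it. These genes were picked for a small p on the same arrays, so a reversal was unlikely from the start.

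Quantile normalization gave 824 genes higher and 524 lower at p under 0.01, against 629 and 575 as deposited, and median centring 483 and 534. Signals near the array floor, as for Cacna1e and Htr2b, limit what their differences can show.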

Other observations

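Of 18 circadian clock genes 0 passed the adjusted threshold in limma, with 4 higher and 3 lower at an unadjusted p of 0.05, against 8.07% and 7.07% of all genes. Nr1d1, a repressor of the clock, read 9.79, 10.41 and 10.72 at the lowest, median and highest CR mouse, against 10.26, 11.2 and 11.58 in control mice (difference -0.73, adjusted p = 0.081). Arntl, which Nr1d1 represses, differed by -0.37 (adjusted p = 0.13) and Clock by -0.32 (adjusted p = 0.095), while the output factor Hlf differed by 0.40 (adjusted p = 0.082) and Cry1 by 0.25 (adjusted p = 0.12). Without the 4 epididymal arrays Nr1d1 alone of the 18 passed the adjusted threshold in limma (difference -0.89, adjusted p = 0.023). Among 18 adipokine and secreted adipocyte genes, 1, Nampt, rose. Sfrp5, a secreted Wnt inhibitor of expanding fat, differed by -0.74 (adjusted p = 0.055) and Retn, the resistin gene, by 0.23 (adjusted p = 0.064). Without the epididymal arrays Sfrp5 passed the adjusted threshold (-0.92, adjusted p = 0.033) and Retn did not (0.24, adjusted p = 0.068). Of 22 genes of branched-chain amino acid breakdown, 20 had a positive difference, against 57.4% of all genes, with 0 calls in limma and 6 higher and 0 lower at an unadjusted p of 0.05.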
